A study of Mus musculus with 6 samples.

Results

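The genes described here are the aminoacyl-tRNA synthetases of the cytosol and of the mitochondria, with Xpot, Aimp1 and Aimp2, which carry out related steps. They were followed in mouse B-cell acute lymphoblastic leukaemia cells driven by the BCR-ABL oncogene and exposed to DHA (dihydroartemisinin, into which artemisinin-type malaria drugs are converted in the body). The set holds 39 genes, and a member was used where the array annotation paired a probe set with it and with no other gene. This left 36 of the 39, among the 22180 genes with such a probe set. They comprised 18 of 20 cytosolic synthetase genes, 16 of 16 mitochondrial ones and 2 of 3 accessory genes. Aars and Aimp2 were left out because their probe sets are also paired with another gene, and Dars is not listed in the annotation used here. Nars2 and Aimp1 had more than 1 probe set, and the brightest by its mean over all arrays stood for the gene.

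Total RNA from 3 samples treated with vehicle (dimethyl sulphoxide, DMSO) and from 3 treated with 312 nM DHA was hybridised to Affymetrix arrays. Per the treatment protocol the exposure lasted 4 h. The growth protocol names mouse leukaemia lines expressing p185 or p185T315I (forms of BCR-ABL) that are Arf-/- or p53-/-. The line used for the arrays is not stated in the sources at hand. Nor is it stated whether the replicates were separate cultures. The p-values therefore cover the spread among these 6 samples, and that spread may be technical.

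Aminoacyl-tRNA synthetases join each amino acid to its tRNA, the step that fixes the genetic code before the ribosome reads it. Nuclear genes encode one set of enzymes for the cytosol and another for mitochondria, where the mitochondrial genome's own proteins are made, and a few genes (Gars and Kars) supply both compartments. Many cytosolic synthetase genes are known targets of ATF4, the transcription factor translated when eIF2α is phosphorylated in the integrated stress response, for example when amino acids run short. ATF4 binds, with C/EBP partners, an element whose core reads TGATGNAA.

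This core was looked for in the RefSeq promoter windows of the members (GRCm38.p6, 250 bases before to 50 after a gene's start, both strands). Of the 18 cytosolic genes, 11 had a window in the table and 4 of these held the core, Gars, Iars, Tars and Yars. None of the 14 mitochondrial genes with a window held it (0 of 14), and it stood in 4.51% of the 27025 genes with a window. The 4 stretches are printed because they are the members' matches to the core, and their genes are followed in the results. Each reads 5′ to 3′ on the strand that carries TGATGNAA, with the match in capitals.
Gars, chr6:55037960-55037989, minus strand: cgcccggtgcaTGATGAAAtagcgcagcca
Iars, chr13:49682126-49682155, minus strand: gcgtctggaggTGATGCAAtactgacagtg
Tars, chr15:11399655-11399684, plus strand: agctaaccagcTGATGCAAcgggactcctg
Yars, chr4:129189895-129189924, plus strand: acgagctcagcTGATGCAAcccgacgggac
Iars, Tars and Yars carry the same 8 bases, TGATGCAA, while Gars carries TGATGAAA. The match is a description of the sequence, and binding was not analysed here.

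The RNA carried the leukaemia's lineage. Of 11 B-cell precursor markers with a probe set, all 11 lay above the filter on dim genes, and the B-cell receptor chain Cd79a measured 12.70 with vehicle and 12.72 with DHA on the log2 scale. Vpreb1, a surrogate light chain component, was near the dim end at 4.78 with vehicle. The mean level of the 11 was 10.53 to 10.57 across vehicle arrays and 10.46 to 10.51 across DHA arrays. At a limma unadjusted p under 0.05, 0 of the 11 were higher with DHA, against 5.94% of all genes tested. At this threshold 3 were lower, against 6.08%, each without overlap, and none passed over all genes. The 3 lower markers were the recombinase gene Rag2 (7.72 with vehicle, 7.19 with DHA), Cd24a (12.72 and 12.56) and the surrogate light chain gene Igll1 (13.04 and 12.92). Their part in the results on the synthetase genes was not tested. The mean level of the 10 myeloid markers was 4.41 to 4.54 across vehicle arrays and 4.50 to 4.53 across DHA arrays, and that of the 10 T and NK cell markers was 4.94 to 5.03 and 4.99 to 5.01, with Cd2 standing out at 9.45 with vehicle and 9.41 with DHA. For 5 erythroid and megakaryocyte markers it was 5.03 to 5.07 and 5.08 to 5.13, and for 9 stromal and endothelial markers 5.31 to 5.36 and 5.34 to 5.41. At a limma unadjusted p under 0.05, 0 of the tested myeloid, T and NK cell, and erythroid markers passed. Of the 6 tested stromal and endothelial markers, 2 were higher at this threshold, Pecam1 by 0.18 and Cdh5 by 0.13 on the log2 scale. Pecam1 stood out in its list at 9.34 with vehicle and 9.52 with DHA, and which cells it came from was not tested. The part of Pecam1 and Cdh5 in the results was likewise not tested. In RNA from whole cultures, fewer cells of a type and less RNA per cell cannot be told apart. Pearson correlations between arrays were 0.9925 to 0.9947. A code in the sample titles is shared by vehicle replicate 3 and DHA replicate 2, and its meaning is not stated.

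As a class, cytosolic synthetase genes lay higher after DHA, with a median near 1.14-fold, and mitochondrial ones lay near no change. The median log2 fold change was 0.19 over the 18 cytosolic genes, -0.0037 over the 16 mitochondrial genes and 0.0027 over all 15526 genes tested. Of the cytosolic genes, 14 were higher and 4 lower, where 51.2% of all genes tested were higher. Of the mitochondrial genes, 7 were higher and 9 lower. The largest change of any member was in Cars, which charges tRNA with cysteine.

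No member passed the test over all genes (0 of 36, limma with Benjamini-Hochberg adjustment at 0.05), against 14 of the 15526 genes tested (0.0902%). At an unadjusted p under 0.05, 10 of the 36 passed in limma, all of them higher with DHA. These were 9 of 18 cytosolic genes and 1 of 16 mitochondrial genes, against 5.94% of all genes tested that were higher at this threshold. Among the 3899 genes at least as bright as the dimmest cytosolic member, the share was 7.05%. Lower at this threshold were 0 of 18 cytosolic and 0 of 16 mitochondrial genes, against 6.08% of all genes and 10.3% of the bright ones.

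**Figure D1:**
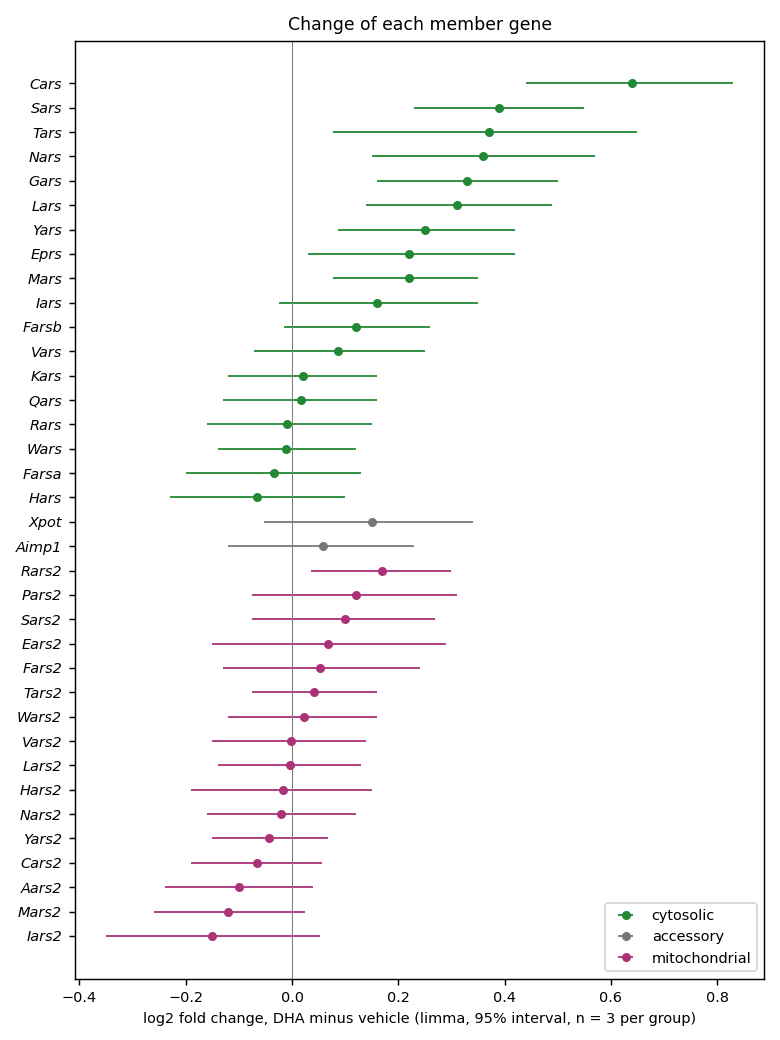
Log2 fold change of each of the 36 genes (DHA minus vehicle, horizontal axis) with its 95% limma interval, not adjusted over genes, n = 3 arrays per group. The intervals of 9 cytosolic genes, from Cars at 0.64 to Mars at 0.22, and of the mitochondrial Rars2 lie above 0.

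Cars measured 9.16, 9.22 and 8.98 in the vehicle arrays and 9.81, 9.65 and 9.83 in the DHA arrays on the log2 scale. The groups did not overlap, and every DHA array lay above the highest vehicle array. Cars was thus 1.56-fold higher with DHA, a log2 fold change of 0.64 with an SE of 0.082 and a 95% interval from 0.44 to 0.83 (limma adjusted p = 0.0636). When the shared title code was fitted as a term, the limma adjusted p was 0.0155, and over the alternatives tried it ranged from 0.0155 to 0.312.

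Sars, the serine enzyme, which also charges the tRNA later converted to carry selenocysteine, came next in order of p. Its vehicle arrays read 11.19, 11.20 and 11.02 and its DHA arrays 11.60, 11.46 and 11.53. The groups were separate and differed by 0.39 on the log2 scale (SE 0.068; limma adjusted p = 0.116). Gars, the glycine enzyme of both cytosol and mitochondria, read 11.20, 11.16 and 11.13 with vehicle and 11.60, 11.35 and 11.53 with DHA. Here DHA replicate 2 was the lowest of the treated arrays but still above the vehicle arrays. The log2 fold change was 0.33 (SE 0.072; limma adjusted p = 0.160), and this gene holds the TGATGAAA shown above.

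Lars, the leucine enzyme, which has also been described as a leucine sensor for mTORC1, read 9.84, 9.97 and 9.92 with vehicle and 10.34, 10.10 and 10.23 with DHA. Nars, the asparagine enzyme, read 11.02, 11.08 and 10.92 against 11.43, 11.19 and 11.48. Neither gene's groups overlapped, and DHA replicate 2 was the lowest treated array in each. Their log2 fold changes were 0.31 (SE 0.074) and 0.36 (SE 0.088), with limma adjusted p of 0.190 and 0.207.

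Mars, the methionine enzyme, which serves initiation as well as elongation, read 9.90, 9.78 and 9.80 with vehicle and 10.00, 10.01 and 10.12 with DHA. Yars, the tyrosine enzyme, read 10.14, 10.19 and 10.07 against 10.47, 10.26 and 10.43. Both had separate groups, by a narrower gap than Cars. The log2 fold change of Mars was 0.22 (SE 0.058) and that of Yars 0.25 (SE 0.070), with limma adjusted p of 0.241 and 0.245.

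Tars, the threonine enzyme, had 1 of the larger changes and the largest spread of these 9. Its arrays read 9.54, 9.66 and 9.36 with vehicle and 9.98, 9.65 and 10.03 with DHA. DHA replicate 2 lay just below vehicle replicate 2, so the groups overlapped (log2 fold change 0.37, SE 0.12; limma adjusted p = 0.320). Eprs, which carries the glutamate and the proline enzyme in a single protein, read 10.20, 10.24 and 10.20 against 10.51, 10.26 and 10.54. Its groups were separate, though DHA replicate 2 nearly met the vehicle arrays (log2 fold change 0.22, SE 0.081; limma adjusted p = 0.351).

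**Figure D2:**
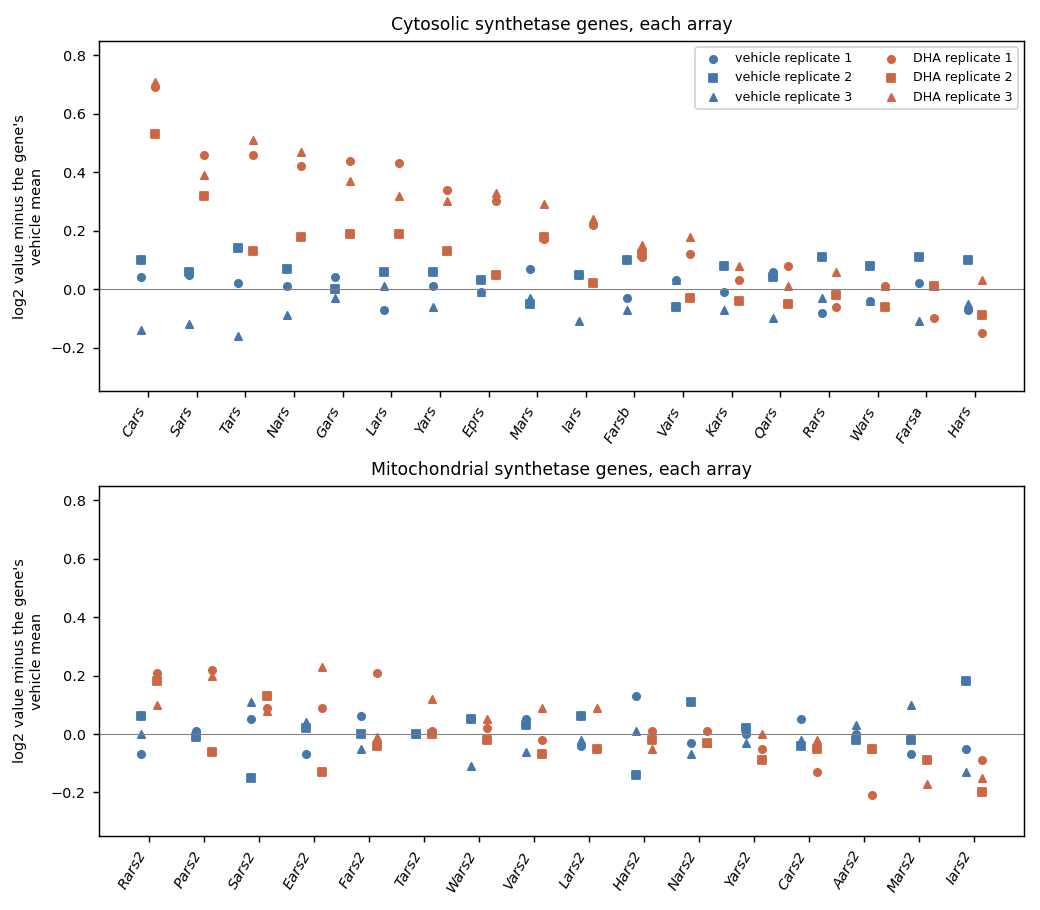
Log2 value of each synthetase gene in each array minus that gene's vehicle mean, with cytosolic genes above and mitochondrial genes below, ordered by fold change. Vehicle arrays are blue and DHA arrays orange, and the marker shape gives the replicate number, which only names a sample. DHA replicate 2 is the lowest treated array in 13 of the 18 cytosolic genes and vehicle replicate 3 the lowest vehicle array in 12.

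The other 9 cytosolic genes did not pass at an unadjusted p under 0.05, and their log2 fold changes ran from -0.065 to 0.16. Iars, the isoleucine enzyme, had 0.16 (95% interval -0.025 to 0.35) and Farsb, the subunit of the phenylalanine enzyme encoded apart from its partner Farsa, had 0.12 (-0.015 to 0.26). Farsb had separate groups by a very small gap, at 9.94, 10.07 and 9.90 with vehicle and 10.08, 10.09 and 10.12 with DHA. Farsa, the other subunit, had -0.033, and neither subunit passed. Vars (valine) had 0.087, Kars (lysine) 0.021 and Qars (glutamine) 0.016. Rars (arginine), Wars (tryptophan) and Hars (histidine) had -0.0089, -0.011 and -0.065, and the upper limits of their 95% intervals were 0.15, 0.12 and 0.10.

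DHA lay above vehicle without overlap in 9 of the 18 cytosolic genes, against 7.64% of all genes tested, and below it in 0, against 8.19%. The 9 are not exactly those past the unadjusted threshold, since Farsb joined and Tars did not. Across the 18, the mean level was 10.31, 10.36 and 10.24 in the vehicle arrays and 10.52, 10.40 and 10.55 in the DHA arrays. The lowest treated array was thus close to the highest vehicle array. DHA replicate 3 lay above the vehicle mean of the gene in 18 of 18, DHA replicate 1 in 15 and DHA replicate 2 in 12. The 2 arrays that share the title code were each the lowest of their own group for most of the 9 genes past the unadjusted threshold, vehicle replicate 3 in 7 and DHA replicate 2 in 8.

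The cytosolic genes were also counted by features that their choice did not use. Of the 7 measured cytosolic genes whose enzymes sit in the multi-synthetase complex, 3 (Eprs, Lars and Mars) passed at an unadjusted p under 0.05, with a median log2 fold change of 0.16. Of the 11 outside it, 6 passed, with a median of 0.25. By catalytic fold, 4 of 9 class I genes and 4 of 8 class II genes passed, with medians of 0.16 and 0.23, and Eprs holds both folds. No test was run over these small groups, and 5.94% of all genes tested were higher at this threshold. Of the 4 genes with TGATGNAA in the window, 3 passed, with log2 fold changes of 0.16 to 0.37 and a median of 0.29. Of the 7 with a window and no match, 3 passed, with log2 fold changes of -0.033 to 0.39 and a median of 0.12. All 4 with the match and 6 of the 7 without it were above 0, and the ranges overlapped. Sars, the second in order of p, is among the 7, and Cars had no window in the table.

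Among the mitochondrial genes, Rars2, the arginine enzyme, was the only 1 past the unadjusted threshold. It read 8.60, 8.73 and 8.67 with vehicle and 8.88, 8.85 and 8.77 with DHA. The groups were separate and differed by 0.17 on the log2 scale (SE 0.056; limma adjusted p = 0.316). Mars2, the methionine enzyme, read 8.26, 8.31 and 8.43 with vehicle against 8.24, 8.24 and 8.16 with DHA, lower without overlap by a small gap (-0.12, SE 0.059; limma adjusted p = 0.496). Iars2, the isoleucine enzyme, read 9.56, 9.79 and 9.48 against 9.52, 9.41 and 9.46, with overlapping groups (-0.15, SE 0.084; limma adjusted p = 0.533). Aars2, the alanine enzyme, read 7.44, 7.42 and 7.47 against 7.23, 7.39 and 7.39, also lower without overlap (-0.10, SE 0.059; limma adjusted p = 0.547). DHA thus lay above vehicle without overlap in 1 of the 16 mitochondrial genes, against 7.64% of all genes tested. It lay below in 2 of the 16, against 8.19%.

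The remaining 12 mitochondrial genes had overlapping groups and log2 fold changes between -0.066 (Cars2, cysteine) and 0.12 (Pars2, proline). Between these lay Sars2 (serine, 0.10), Ears2 (glutamate, 0.068), Fars2 (phenylalanine, 0.052), Tars2 (threonine, 0.042) and Wars2 (tryptophan, 0.022). Vars2 (valine, -0.0028), Lars2 (leucine, -0.0046), Hars2 (histidine, -0.017), Nars2 (asparagine, -0.021) and Yars2 (tyrosine, -0.043) were on the other side of 0. The mean level of the 16 genes was 8.10, 8.10 and 8.08 with vehicle and 8.11, 8.06 and 8.12 with DHA, so the class spread over no more than a few hundredths of a log2 unit. Vehicle means of mitochondrial genes were 6.84 to 9.61 and those of cytosolic genes 8.82 to 11.50, and fold changes of dim probe sets on such arrays tend to be understated. Whether this bears on the mitochondrial genes was not tested. The median SE was 0.060 for mitochondrial and 0.070 for cytosolic genes. Tars2 held the same value in 4 of the 6 arrays, and 13.8% of all genes tested held the same value in 3 or more.

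**Figure D3:**
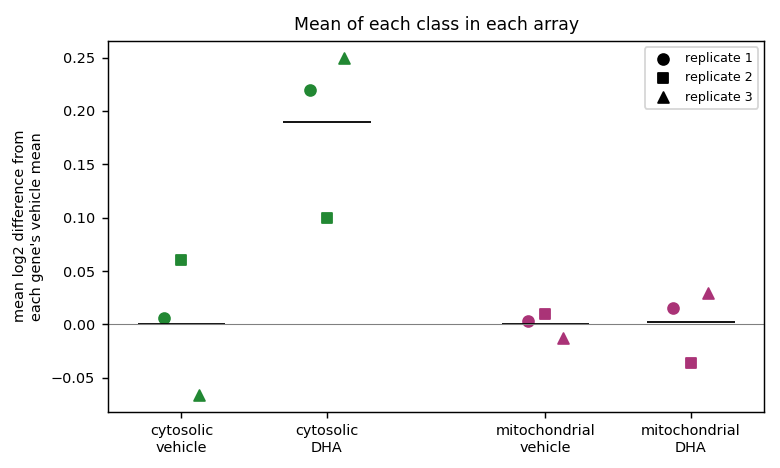
Mean over the 18 cytosolic and the 16 mitochondrial synthetase genes of the log2 difference from each gene's own vehicle mean, for each array, with bars at the group means. The cytosolic DHA arrays lie at 0.22, 0.10 and 0.25, above the vehicle arrays at 0.0059, 0.060 and -0.066, while the mitochondrial arrays all lie between -0.036 and 0.029.

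The mean of the cytosolic genes minus that of the mitochondrial genes, taken within each array, was 2.21, 2.26 and 2.15 with vehicle and 2.41, 2.34 and 2.43 with DHA. The groups were 2.21 ± 0.052 and 2.39 ± 0.046 (SD, n = 3 per group) and did not overlap. The size of the difference itself compares different probe sets and has no meaning as an amount. Its shift between groups is free of fixed offsets between probe sets, but not of unequal response of dim and bright ones. Since the members were chosen with earlier results known, no p is given for these class means.

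For 12 amino acids both a cytosolic and a mitochondrial gene were measured. The change of the cytosolic gene was the higher in 9 pairs and the lower in 3, and the median difference of the 2 changes was 0.30. In 6 pairs the difference between the genes was higher in every DHA array than in every vehicle array (Cars, Iars, Lars, Mars, Nars and Yars with their mitochondrial partners). In 1 pair it was lower in every DHA array. The Nars pair used the brighter Nars2 probe set, with a log2 fold change of -0.021, while the dimmer had 0.22 (SE 0.11). Separation of this pair with the dimmer probe set was not tested. Taken singly, 7.64% of all genes tested had DHA above vehicle without overlap and 8.19% below. The share over other pairs of genes was not worked out. For Cars minus Cars2 the difference was 0.70, 0.85 and 0.59 with vehicle and 1.53, 1.29 and 1.43 with DHA, a shift of 0.71 (SE 0.10; exact permutation p = 0.1, two-sided, the smallest that 3 against 3 arrays allow). Cars2 itself, the mitochondrial cysteine enzyme, read 8.46, 8.37 and 8.39 with vehicle and 8.28, 8.36 and 8.39 with DHA.

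Gars has no separate mitochondrial partner, and Sars was compared with Sars2. Sars2 read 9.27, 9.07 and 9.33 with vehicle and 9.31, 9.35 and 9.30 with DHA, and the difference within the serine pair shifted by 0.29 with overlapping groups (SE 0.14; exact permutation p = 0.2). The arginine pair went the other way, since Rars minus Rars2 shifted by -0.18 with separate groups (SE 0.075; exact permutation p = 0.1). The histidine and tryptophan pairs shifted by -0.048 and -0.033, with overlapping groups. Over the 12 pairs the exact permutation p was at its smallest in 7, and after Benjamini-Hochberg adjustment over the pairs these 7 had p = 0.171. With 3 arrays per group this exact test cannot pass 0.05 for any pair.

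**Figure D4:**
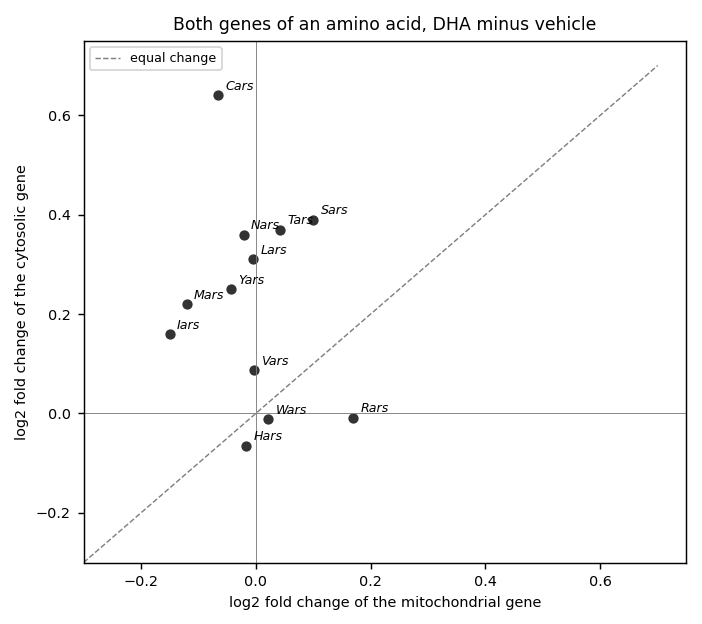
Log2 fold change (DHA minus vehicle) of the cytosolic gene against that of the mitochondrial gene for the 12 amino acids with both, each point named by its cytosolic gene, with the dashed line at equal change. Points for 9 pairs lie above the line, Cars farthest from it, and Hars, Rars and Wars lie below.

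Neither accessory gene passed at an unadjusted p under 0.05. Xpot, the exportin that carries mature tRNAs out of the nucleus, read 9.68, 9.73 and 9.68 with vehicle and 9.81, 9.70 and 10.01 with DHA. DHA replicate 2 fell among the vehicle arrays (log2 fold change 0.15, SE 0.083; limma adjusted p = 0.535). Aimp1, a scaffold of the multi-synthetase complex, read 8.37, 8.37 and 8.18 against 8.43, 8.27 and 8.40, with overlapping groups (0.059, SE 0.073; limma adjusted p = 0.788). The dimmer Aimp1 probe set had -0.019, and the dimmer Nars2 probe set had 0.22 (SE 0.11) where the brighter had -0.021.

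Other genes that make, export, modify or use tRNA were counted in lists written from general knowledge, and no gene of the first 6 lists passed the test over all genes. Of all genes tested, 5.94% were higher and 6.08% lower at a limma unadjusted p under 0.05. Of 10 tested genes for other charging steps, 0 were higher and 1 was lower at a limma unadjusted p under 0.05. That gene, Mtfmt, which formylates the mitochondrial initiator tRNA, had -0.20 (limma adjusted p = 0.242). The amidotransferase subunits Gatc and Qrsl1, which make mitochondrial glutaminyl-tRNA, had -0.10 and 0.10. Eef1e1, a further scaffold of the multi-synthetase complex, had 0.068 (limma adjusted p = 0.685).

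Cytosolic elongation factors had 0 of 6 past the unadjusted threshold in limma and a median of -0.0033, with Eef1a1, which delivers charged tRNA to the ribosome, at 0.030. Mitochondrial translation factors had 1 of 10 higher, the ribosome recycling factor Mrrf (0.18, limma adjusted p = 0.327). Processing and export genes had 0 of 20 in either direction and a median of 0.0070, with the RNase P subunit Rpp25 at -0.28 (limma adjusted p = 0.453).

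Of 37 tRNA modification genes, 5 were higher and 0 lower at the unadjusted threshold, against 5.94% and 6.08% of all genes tested, with a median of 0.064. The 5 included the methyltransferase Nsun6 (0.35), the dihydrouridine synthase Dus2 (0.25) and the queuine enzyme subunit Qtrt1 (0.16), with limma adjusted p of 0.126, 0.247 and 0.287. Of 20 genes of RNA polymerase III, which transcribes tRNA genes, 1 was higher and 3 lower, with a median of -0.037. Polr3g, an alternative subunit of that polymerase, had -0.36 (limma adjusted p = 0.165) and Polr3c had 0.22 (limma adjusted p = 0.278).

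A further list held 22 tested targets of ATF4 that are not synthetases, a list on which earlier results of these samples were known. Of these 22, 20 were higher at the unadjusted threshold in limma, against 5.94% of all genes tested. The test over all genes was passed by 6, all higher with DHA, against 0.0837% of all genes tested that passed as higher. The median log2 fold change of the 22 was 0.53. The CHOP gene Ddit3 had 2.48, from 7.48 to 9.96 (limma adjusted p = 0.0225). The cytosolic synthetase genes, with a median of 0.19 and a highest value of 0.64, thus had smaller changes than this list's median in all but Cars. Whether the members differ from this list was not tested.

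**Figure D5:**
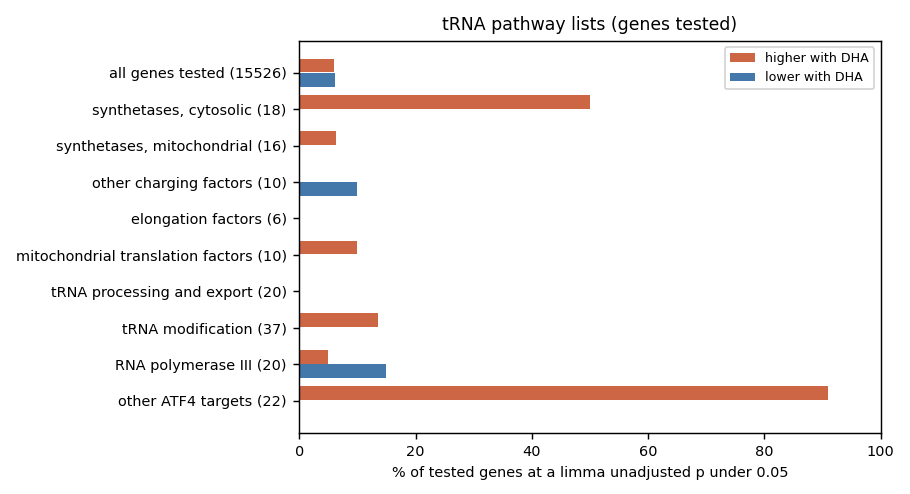
Share of the tested genes of each list at a limma unadjusted p under 0.05 that were higher (orange) or lower (blue) with DHA, in percent, with the number of genes tested in brackets. The cytosolic synthetases (9 of 18 higher) and the other ATF4 targets (20 of 22 higher) have longer orange bars than all genes tested (5.94%). So do tRNA modification (5 of 37), mitochondrial translation factors (1 of 10) and mitochondrial synthetases (1 of 16), by less.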

How the data were processed

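The deposited table gave log2 intensities of probe sets in 6 arrays, made by the authors with RMA and Partek version 6.6, per the submitters' processing notes. Neither their order nor their settings are stated. Array medians were 5.25 to 5.31, no value was missing among 41345 probe sets, and the number of arrays limits the precision. The platform annotation paired 23521 probe sets with 1 gene, 1814 with several and did not name 16010. The brightest probe set stood for each of 22180 genes, and a filter at the 30th percentile of gene means (4.52) kept 15526 and all 36 members.

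DHA was compared with vehicle across all genes in R (version 4.3.3) by limma (version 3.58.1) (empirical Bayes, two-sided, Benjamini-Hochberg, 4 residual and 2.77 prior degrees of freedom). The fit was also run on simulated data for this comparison, with 15526 genes of which 200 were changed. There limma found 90.3% of genes changed by 0.5 and 99.9% of those changed by 1 on the log2 scale. Of its calls there, 4.87% were false. On the arrays themselves, Cars at 0.64 did not pass (limma adjusted p = 0.0636), and 14 of the 15526 genes did. The simulated shares are therefore not the power on these arrays and do not show that members which did not pass were unchanged. Pairs were tested by exact permutation. Members and lists were chosen with earlier results of these data known. Values in every array are given for cytosolic members with an unadjusted p under 0.05, the 4 mitochondrial members of smallest p, accessory members and partners of the 3 leading cytosolic members, and up to 3 genes of smallest p were taken from each other list. Farsb and genes named further were chosen after their values were seen. Promoter sequence is from RefSeq (GRCm38.p6).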

Additional observations from a re-analysis of the deposited data

How the results depend on the processing

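No paired analysis was possible because replicate numbers came from accession order and the titles share only 1 code between a vehicle and a DHA array. The median of the cytosolic genes kept its sign in every alternative run and was 0.15 to 0.23 on leaving out 1 array, and cytosolic minus mitochondrial medians were 0.16 to 0.21. The cytosolic genes higher at a limma unadjusted p under 0.05 were 7 to 11 of 18 on leaving out 1 array. In the same fits, 4.37% to 6.65% of all genes tested were higher at this threshold. The 9 named genes kept their sign in each alternative. The mitochondrial median was -0.023 to 0.026 on leaving out 1 array, 0.013 after quantile normalization and 0.0097 with the mean of probe sets. The count of all genes called, 14, was 0 to 24 on leaving out 1 array (24 without DHA replicate 2, and 0 without any other array, with 1356 to 1710 genes at a limma unadjusted p under 0.05 in those 5 fits). It was 5 with no filter and 62 with a stricter filter, at the 50th percentile. It was 52 with arrays centred on their medians, 63 with quantile normalization, 62 with trend and robust moderation, 2 with each probe set tested, 41 with the title-code term, 0 without both arrays of that code (1569 genes at a limma unadjusted p under 0.05) and 80 at an adjusted p of 0.1. Some of these settings use fewer arrays or test other numbers of genes by design. Beyond that, the cause was not tested. Members called went from 0 to 1, Cars, with either normalization, with the 50th percentile filter, with the title-code term, with trend and robust moderation and at an adjusted p of 0.1.

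Of 36 members, 23 kept their direction throughout. Ranges on leaving out 1 array that crossed 0 were -0.091 to 0.019 for Farsa, -0.013 to 0.059 for Kars, -0.032 to 0.047 for Qars, -0.048 to 0.044 for Rars, -0.032 to 0.032 for Wars, -0.014 to 0.16 for Ears2, -0.028 to 0.10 for Fars2, -0.085 to 0.045 for Hars2, -0.051 to 0.024 for Lars2, -0.059 to 0.033 for Nars2, -0.050 to 0.032 for Vars2, -0.031 to 0.049 for Wars2 and -0.0051 to 0.11 for Aimp1. Other changes of sign were Lars2 (0.011) and Vars2 (0.015) after quantile normalization, Nars2 with the mean of probe sets (0.098), and Qars (-0.00085), Lars2 (0.0072) and Wars2 (-0.014) without both arrays of the title code. Counting Aimp2 as mitochondrial was not run because its probe set is shared.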
